A study of Rattus norvegicus with 8 samples.

Results

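The 5 tubulin genes Tubb5, Tubb2b, Tuba1b, Tuba4a and Tubg1 were examined in cells of the rat PC12 line Htt14A2.5, with and without induction of a truncated mutant huntingtin exon. They were taken as every probe set that the array's annotation assigns to a single one of these symbols. This gave 7 probe sets of the 7018 with a single symbol, and 5 genes of 4737. PC12 comes from a rat adrenal medullary tumour, and the line carries exon 1 of human huntingtin in a truncated mutant form behind an inducible system. The induced group was 4 samples treated with ponasterone (PA), the steroid inducer, for 48 h, and the uninduced group was 4 samples of the same line without it. Both groups carry the transgene, so their cells share the line and differ by the inducer. All samples come from a single line, no array of cells without the transgene was analysed here, and effects of the steroid and of the huntingtin fragment cannot be told apart. Nothing in the sources used here says that the replicates were separate cultures, so the p-values measure the spread between these samples, which may be technical.

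Tubulins are the building blocks of microtubules. An alpha and a beta chain form the dimer that polymerises, and gamma-tubulin sits in ring complexes that start new microtubules, mostly at the centrosome. Vertebrates encode several alpha and beta chains, called isotypes, in separate genes whose products are very alike and differ mainly at their C-terminal tails. Tubulin transcripts are also known to be degraded faster when unpolymerised dimers accumulate. In PC12 cells microtubules fill the neurites that grow out when the cells differentiate.

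Each sample's array gave a scaled signal for each probe set, with array medians of 97.5 to 134.9. As a yardstick for low signal, the 95th percentile of 38 control probe sets for foreign or reverse-strand sequences lay between 102 and 137 on induced and between 128 and 183 on uninduced arrays. Gapdh control probe sets at the 3' and 5' ends, compared as a sign of RNA quality, gave log2 ratios of 0.39 to 0.56 on induced and 0.20 to 0.50 on uninduced arrays. The same ratio of the beta-actin controls was -0.67 to 0.57 on induced and 0.08 to 0.57 on uninduced arrays, with induced replicate 3 alone below 0. For hexokinase it was 0.50 to 1.14 on induced and 0.87 to 1.37 on uninduced arrays. Of 10 measured chromaffin cell markers, the cells PC12 derives from, 5 were above the control percentile on all 8 arrays, among them Chgb. Of the markers tested, Ret and Gap43 rose by 0.96 and 0.61 on the log2 scale (limma adjusted p = 0.0041 and 0.012), and Phox2a fell by 0.70 (adjusted p = 0.00048). The enzymes of catecholamine synthesis gave low signals: Dbh and Ddc passed it on 0 of 8 arrays and Th on 1. Of 8 fibroblast, 5 Schwann cell and glia and 6 leukocyte markers, 3, 2 and 1 were above it on all 8 arrays. Their summed signals were 4253 to 5483 on induced and 4148 to 5166 on uninduced arrays for fibroblasts, 801 to 925 on induced and 634 to 898 on uninduced arrays for glia, and 178 to 506 on induced and 204 to 357 on uninduced arrays for leukocytes. Sox10 of glia, Lum of fibroblasts and Lyz2 and Itgam of leukocytes were above the percentile on 0 of 8 arrays. Col1a1, Col3a1 and Thy1 of the fibroblast list and Cd4 of the leukocyte list were above it on all 8. Col3a1 averaged 1181 in induced and 1042 in uninduced cells, Thy1 2945 and 2957, Col1a1 326 and 291, and Cd4 176 and 167. Pmp22 and Mag of glia were above it on all 8 arrays, and Pmp22 rose by 0.81 (547 in induced and 310 in uninduced cells, limma adjusted p = 0.016), with no overlap of the groups. The part of RNA quality and of these markers in the results was not tested.

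Tuba4a was higher and Tubg1 lower after induction, while Tuba1b and Tubb5, chains made in most cells, showed differences that did not pass the test. On the log2 scale these were -0.22 for Tuba1b and -0.22 and -0.43 for the brighter and dimmer Tubb5 probe sets. Tubb2b signals lay at the level of the background controls. Differences were fitted with limma over 6129 probe sets on log2(signal + 7), with Benjamini-Hochberg adjustment over all of them and a threshold of 0.05. Of all tested probe sets, 433 were called (7.06%), with 4.10% called higher and 2.97% called lower in induced cells. Of the 7 tubulin probe sets 6 passed the filter on low values, 1 was called higher, 1 was called lower and 4 were not called. The arrays of the groups did not overlap for 3 of the 6 tested tubulin probe sets, 1 higher and 2 lower in induced cells, against 13.6% of all tested probe sets (6.48% higher and 7.11% lower). Each fold given is 2 to the power of the fitted log2 difference and so carries the added 7. The ± values are SDs for signals and the fit's standard errors for log2 differences. In RNA from whole cultures, fewer cells of a kind and less RNA per cell cannot be told apart.

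The upstream sequence is printed for the genes whose probe sets were called, Tuba4a and Tubg1. Whether it bears on their differences was not tested. These are the 250 bases before the start in RefSeq (build GRCr8), 5′ to 3′ on the gene's strand, with CCAAT and TATAA on either strand in capitals. The Tuba4a window is chr9:84162585-84162834, minus strand, and the Tubg1 window is chr10:86552893-86553142, plus strand.
Tuba4a: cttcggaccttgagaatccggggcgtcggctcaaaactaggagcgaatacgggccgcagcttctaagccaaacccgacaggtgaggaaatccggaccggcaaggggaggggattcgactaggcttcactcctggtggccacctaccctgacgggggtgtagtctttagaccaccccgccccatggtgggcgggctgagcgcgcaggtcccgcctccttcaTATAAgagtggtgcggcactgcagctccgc
Tubg1: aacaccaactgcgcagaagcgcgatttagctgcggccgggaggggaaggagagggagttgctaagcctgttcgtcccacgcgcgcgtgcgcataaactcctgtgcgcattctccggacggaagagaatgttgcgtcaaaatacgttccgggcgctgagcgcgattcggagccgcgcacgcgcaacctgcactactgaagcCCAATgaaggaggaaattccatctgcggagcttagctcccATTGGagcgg
The Tuba4a window held TATAA 30 bases before the start and no CCAAT, and the Tubg1 window held CCAAT starting 50 and 10 bases before the start and no TATAA. The Tubb5, Tubb2b and Tuba1b windows each held 1 CCAAT and no TATAA. Of all 33469 windows of this length, 34.0% held CCAAT and 24.0% TATAA on either strand. GGGCGG, the GC box, occurred 2 times for Tuba4a, 3 times each for Tubb5 and Tuba1b and not for Tubg1 or Tubb2b, against 30.5% of all windows with at least 1. Neither TGANTCA, the AP-1 site (6.34% of all windows), nor TGACGTCA, the cyclic AMP response element (1.59%), was in any of the 5 windows. CCAAT does not overlap the other motifs searched at these places, and a match of letters is no binding site.

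Among the alpha chains, Tuba4a is the isotype whose gene does not encode the C-terminal tyrosine that other alpha-tubulins carry. Its signal was 1052.8, 962.6, 963.0 and 975.9 on the induced arrays, against 605.2, 542.7, 592.2 and 539.5 on the uninduced arrays. Every induced array lay above every uninduced array, and the lowest induced signal was well clear of the highest uninduced one. Tuba4a averaged 989 ± 43.3 in induced and 570 ± 33.7 in uninduced cells (SD, n = 4 each), all above the background controls. The log2 difference was 0.79 ± 0.10 (95% interval 0.57 to 1.01, limma adjusted p = 0.00046), a 1.73-fold rise. It passed the test in all 16 alternatives run, with log2 differences from 0.75 to 0.82.

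Tuba1b is an alpha chain made in nearly all cells and the only other alpha gene with a probe set of its own here. Its signal was 16842.8, 17504.4, 20408.8 and 19428.1 on the induced arrays, against 21527.8, 20328.8, 20551.7 and 23779.1 on the uninduced arrays. The groups overlapped, since induced replicate 3 lay above uninduced replicate 2. Tuba1b averaged 18546 ± 1657 in induced and 21547 ± 1577 in uninduced cells (SD, n = 4 each). The log2 difference of -0.22 ± 0.09 did not pass (95% interval -0.42 to -0.02, limma adjusted p = 0.23).

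The 2 alpha chains were also set against each other within each array, where a shared change of scale cancels. The log2 ratio of Tuba4a to Tuba1b was -3.99, -4.17, -4.40 and -4.31 on the induced arrays, against -5.14, -5.21, -5.10 and -5.44 on the uninduced arrays. The groups did not overlap, and the ratio was higher in induced cells by 1.01, a 2.01-fold change. This figure includes the difference of -0.22 of the single Tuba1b probe set, which did not pass its own test. Probe sets assigned to Tuba1b and other alpha genes, given below, differed by 0.51, 0.32 and 0.10. The ratio has a meaning between arrays only, since the signals of different probe sets are not on a common scale. The exact two-sided permutation test over the 70 divisions of 8 arrays gave p = 0.029, the smallest it can give, and 0.086 after adjustment over the 3 ratios compared, which did not pass.

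**Figure D1:**
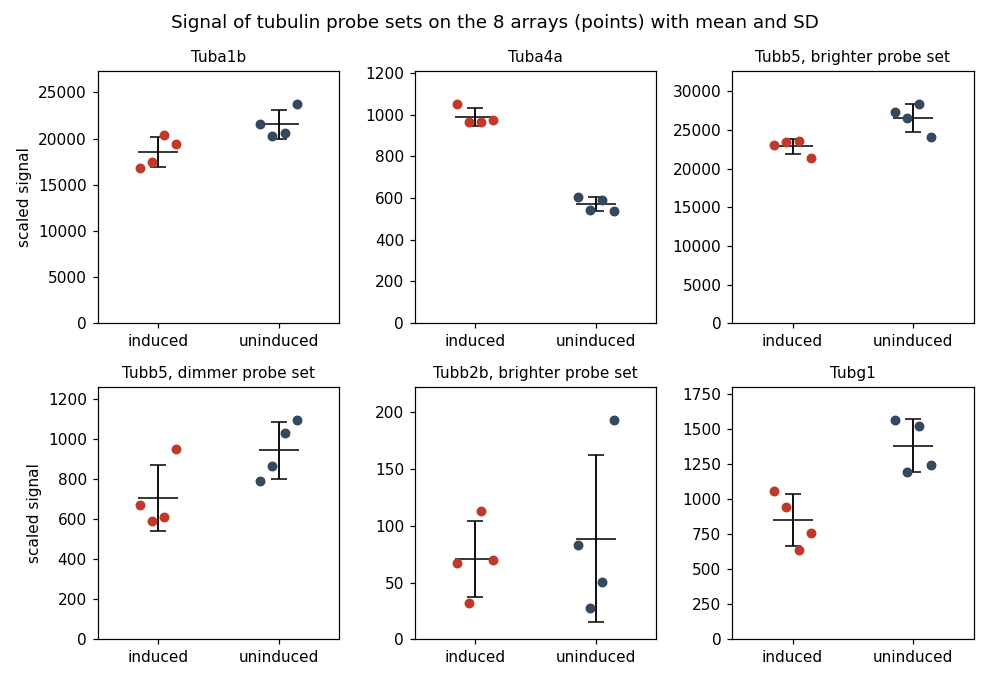
Scaled signal (y axis, from 0) of 6 tubulin probe sets on the induced and uninduced arrays; points are arrays, and the bar and whiskers are the mean and SD (n = 4 each). Tuba4a separates upward in induced cells and Tubg1 downward. The brighter Tubb5 probe set also separates downward, though it was not called. The induced and uninduced points of Tuba1b, the dimmer Tubb5 and the brighter Tubb2b probe sets overlap.

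Another 3 probe sets were assigned to several alpha-tubulin genes. Each annotation includes Tuba1b beside others, so none of them names a single gene. Their fitted log2 differences were 0.51, 0.32 and 0.10, against -0.22 for the Tuba1b probe set. The smallest, of the probe set assigned to 4 symbols, had a 95% interval of -0.17 to 0.37, which overlaps that of Tuba1b. None of these probe sets was tested against the Tuba1b probe set. The brighter of those assigned to 2 genes read 22597.4, 23526.7, 21041.9 and 27095.4 on the induced arrays, against 17532.9, 14542.7, 15721.0 and 18236.4 on the uninduced arrays. Here all induced arrays were above all uninduced ones, at 23565 ± 2567 in induced and 16508 ± 1685 in uninduced cells (SD, n = 4 each). This probe set rose by 0.51 ± 0.10 on the log2 scale (95% interval 0.29 to 0.74, limma adjusted p = 0.0098). The call ended with the variance fitted without an intensity trend (adjusted p = 0.068) and with both arrays numbered 2 left out (0.098).

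The dimmer probe set assigned to 2 genes averaged 15619 ± 1530 in induced and 12511 ± 1288 in uninduced cells (SD, n = 4 each). Its log2 difference of 0.32 ± 0.10 did not pass (limma adjusted p = 0.093), though it did without induced replicate 4 (0.39, adjusted p = 0.036). The probe set assigned to 4 symbols, among them a pseudogene, averaged 19235 ± 1631 in induced and 18118 ± 2952 in uninduced cells, a log2 difference of 0.10 ± 0.12 (adjusted p = 0.77). Its sign turned without uninduced replicate 4, the lowest array of its group at 13797.4 (difference -0.03).

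Divided by the Tuba1b signal of the same array, the brighter 2-gene probe set stood at 1.34, 1.34, 1.03 and 1.39 on the induced arrays, against 0.81, 0.72, 0.76 and 0.77 on the uninduced arrays. The dimmer one stood at 0.96, 0.91, 0.83 and 0.69 on the induced arrays, against 0.53, 0.68, 0.65 and 0.48 on the uninduced arrays. The groups did not overlap in either, so probe sets for alpha-tubulins gave unequal changes on the same arrays. These ratios were chosen after the values were seen and carry no test. Which alpha transcript the difference belongs to was not tested.

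**Figure D2:**
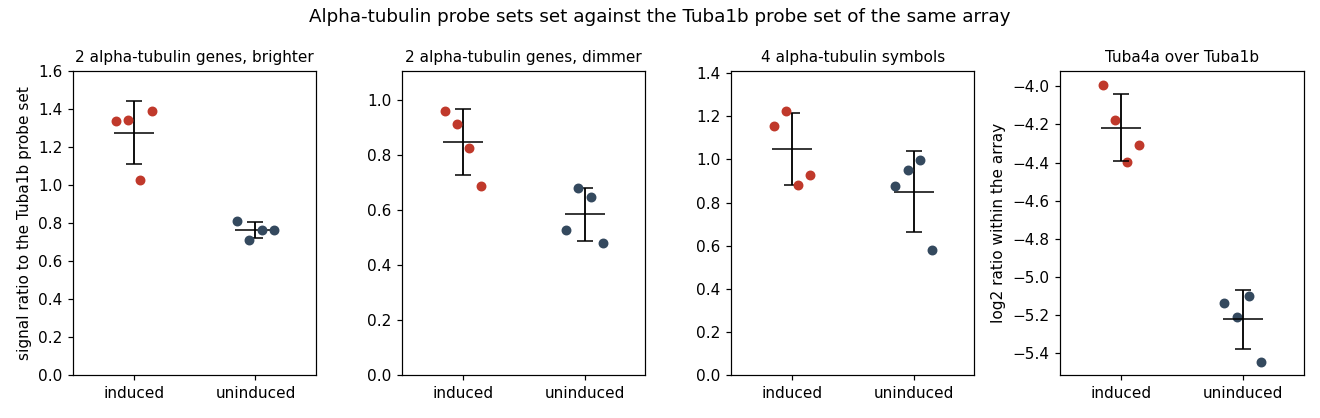
In the first 3 panels, the signal of each probe set assigned to several alpha-tubulin genes divided by the Tuba1b signal of the same array (y axis from 0); in the last panel, the log2 ratio of Tuba4a to Tuba1b. Points are arrays, with mean and SD (n = 4 each); the induced arrays lie above the uninduced ones in all panels but that of the 4-symbol probe set.

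Among the beta chains, Tubb5 is the isotype made in most dividing cells. Its brighter probe set carries the suffix that marks probes shared by more than 1 transcript, so it can read relatives too. It read 23006.6, 23502.8, 23565.3 and 21396.3 on the induced arrays, against 27302.5, 26561.8, 28401.5 and 24074.1 on the uninduced arrays. All induced arrays were below all uninduced ones. It averaged 22868 ± 1012 in induced and 26585 ± 1837 in uninduced cells (SD, n = 4 each). The log2 difference of -0.22 ± 0.08 did not pass (95% interval -0.39 to -0.04, limma adjusted p = 0.17). The highest signals of any probe set on these arrays were 43877 to 53116, above these Tubb5 values. Whether single probes were saturated was not tested.

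The dimmer Tubb5 probe set read 670.5, 592.4, 610.9 and 948.1 on the induced arrays, against 787.2, 865.1, 1029.5 and 1094.0 on the uninduced arrays. The groups overlapped through induced replicate 4, the highest of its group. It averaged 705 ± 165 in induced and 944 ± 142 in uninduced cells, a log2 difference of -0.43 ± 0.16 that did not pass (95% interval -0.79 to -0.07, adjusted p = 0.17). Without induced replicate 4 the difference was -0.58 and passed (adjusted p = 0.027). Both Tubb5 probe sets thus had intervals below 0 before adjustment, and neither was called with all arrays.

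The log2 ratio of Tuba1b to the brighter Tubb5 probe set, an alpha against a beta chain, was -0.45, -0.42, -0.21 and -0.14 on the induced arrays, against -0.34, -0.39, -0.47 and -0.02 on the uninduced arrays. The groups overlapped fully and differed by -0.0021 (exact permutation p = 1.00, two-sided, also after adjustment over the 3 ratios). A p of this size does not show that the 2 chains changed alike.

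Tubb2b, a beta chain of neurons that is known for its part in neuronal migration, gave little signal. Its brighter probe set carries the same shared-probe suffix as the brighter Tubb5 probe set, so it can read relatives too. It read 67.4, 31.8, 113.1 and 70.2 on the induced arrays, against 83.2, 28.0, 50.2 and 193.0 on the uninduced arrays. Only induced replicate 3 and uninduced replicate 4 exceeded the control percentile of their own arrays. The means were 70.6 ± 33.3 in induced and 88.6 ± 73.2 in uninduced cells (SD, n = 4 each). The log2 difference was -0.11 ± 0.52, with an interval from -1.25 to 1.03 that holds a change of either sign (limma adjusted p = 0.96). Its sign turned without uninduced replicate 4 (0.35) and without induced replicate 2 (0.19).

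The dimmer Tubb2b probe set read 0.8 to 4.0 on induced and 0.3 to 2.1 on uninduced arrays, below the filter, and was not tested. The file holds no detection calls, so whether the transcript was present is unknown. The rat reference list gives the name Tubb2b also as a synonym of the neighbouring gene Tubb2a, so the assignment of these probe sets may be less firm than for the others. The log2 ratio of Tubb2b to the brighter Tubb5 probe set differed by 0.11 (exact permutation p = 0.89, two-sided, 1.00 after adjustment over the 3 ratios). Without uninduced replicate 2 this ratio differed by -0.28 and without uninduced replicate 4 by 0.61, so its sign rests on single arrays at background level.

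Tubg1 encodes the main gamma-tubulin, which starts microtubules at the centrosome and is not built into their walls. Its probe set carries the same shared-probe suffix as the brighter Tubb5 probe set, so it may read other transcripts too. Its signal was 1055.6, 945.7, 639.4 and 760.2 on the induced arrays, against 1563.7, 1192.8, 1522.8 and 1241.6 on the uninduced arrays. All induced arrays lay below all uninduced arrays, with the nearest pair at induced replicate 1 and uninduced replicate 2. Induced replicate 3, with the low beta-actin ratio, was the lowest, and without it the log2 difference was -0.58 and was called (adjusted p = 0.042). Tubg1 averaged 850 ± 186 in induced and 1380 ± 190 in uninduced cells (SD, n = 4 each). It fell by 0.71 ± 0.16 on the log2 scale (95% interval -1.06 to -0.36, limma adjusted p = 0.017), to 0.61 of the uninduced level. The call ended without uninduced replicate 1 (adjusted p = 0.059) or uninduced replicate 3 (0.062), its highest arrays, with median centring (0.16) and without the intensity trend (0.077), and the sign held in all 16 alternatives.

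**Figure D3:**
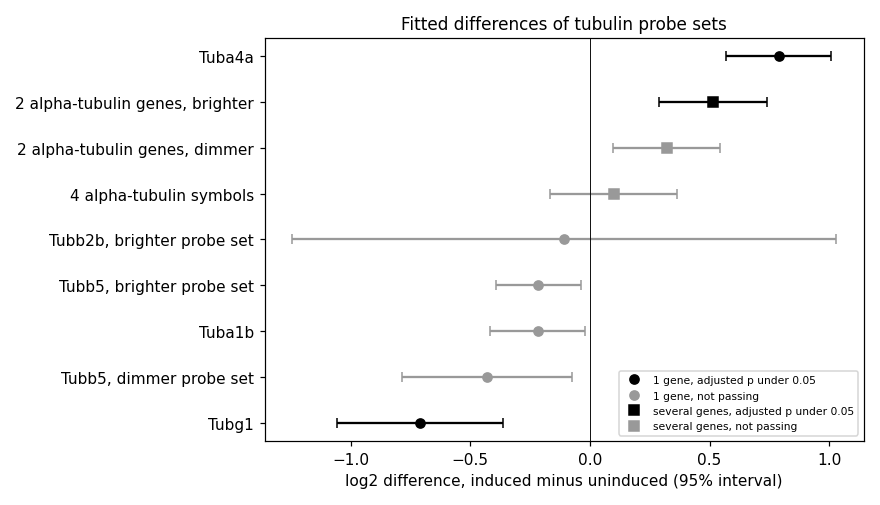
Fitted log2 difference, induced minus uninduced, with its 95% interval (x axis) for the 9 tested probe sets of the tubulin genes and of several alpha-tubulin genes; circles are probe sets of 1 gene, squares of several, and black marks an adjusted p under 0.05. The points run from Tuba4a at 0.79 at the top to Tubg1 at -0.71 at the bottom, with the widest interval for Tubb2b.

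The genes whose values over the 8 arrays were nearest to each tubulin were found from log2 values centred on each probe set's own mean. The measure was the mean absolute difference over the arrays, and a tubulin that varies little lies near many flat genes. A gene picked as near to a called tubulin tends to repeat its group difference. The differences of the genes named below are therefore no separate evidence. Nearest to Tuba4a were Calr, a calcium-binding chaperone of the endoplasmic reticulum (distance 0.065), and Hspa5, the main chaperone there (0.075), while Tuba4a itself deviated from its mean by 0.39 on average. Calr averaged 3306 ± 178 in induced and 1930 ± 76.0 in uninduced cells, and Hspa5 4009 ± 338 in induced and 2279 ± 193 in uninduced cells (SD, n = 4 each). All 4 induced arrays were above all 4 uninduced ones for both genes.

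Nearest to Tubg1 were Map3k1, a kinase upstream of MAP kinases, and Ccnb1, the cyclin of the mitotic kinase Cdk1 (distance 0.11 each, with Tubg1 deviating by 0.36 on average). Ccnb1 averaged 1092 ± 123 in induced and 1706 ± 148 in uninduced cells (limma log2 difference -0.64 ± 0.11, adjusted p = 0.0034), and Map3k1 differed by -0.54 (adjusted p = 0.079). Nearest to the brighter Tubb5 probe set were Tcea2, an elongation factor of RNA polymerase (0.029), and Dynlrb1, a dynein light chain (0.032). Nearest to Tuba1b were Thy1, a surface glycoprotein of neurons also listed above as a fibroblast marker (0.036), and Slc25a10, a mitochondrial carrier (0.049). None of these 4 probe sets was called. The Thy1 probe set here averaged 898 in induced and 1033 in uninduced cells. It is not the brighter one given among the markers, which averaged 2945 and 2957. For Tubb2b, Ttr and Gja4 came nearest (0.25 each), at signals of 158 and 181 in induced and 151 and 168 in uninduced cells.

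The other genes of microtubule biology were counted with the probe set of highest mean signal for each gene. Over all tested probe sets the median log2 difference was -0.05, with 4.10% called higher and 2.97% called lower. The counts of each list below are to be read beside these shares. Of the 15 other tubulins listed, 0 had a probe set with a single symbol. The gamma-tubulin complex and centrosome list had 5 of its 27 genes on the array, with 0 called higher, 1 called lower and 4 not called, at a median of -0.43. Plk1, the polo kinase of mitosis that also acts at the centrosome, fell by 0.43 ± 0.09 (1884 ± 112 in induced and 2545 ± 234 in uninduced cells, SD, n = 4 each, limma adjusted p = 0.015). The ring complex subunits Tubgcp4 and Tubgcp6, partners of gamma-tubulin that were also named after their values were seen, differed by -0.10 ± 0.13 and -0.38 ± 0.18 and were not called (adjusted p = 0.80 and 0.31). Another Tubgcp4 probe set differed by -0.43 ± 0.21 and was not called (limma adjusted p = 0.32), and its last, with a mean signal of 9.4, lay below the filter. The centrosome genes Pcm1 and Plk4, likewise named after their values were seen, differed by -0.82 and -0.61 (adjusted p = 0.052 and 0.061).

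Microtubule-associated and tubulin-binding proteins had 12 tested genes of 30, with 3 called higher, 1 called lower and 8 not called, at a median of 0.13. Stmn4, a stathmin that binds tubulin dimers in neurons, read 1775.4, 1622.6, 1772.6 and 1364.5 on the induced arrays, against 376.6, 379.6, 411.8 and 460.5 on the uninduced arrays, with no overlap. Its log2 difference was 1.98 ± 0.12 (limma adjusted p = 1.3e-06), from a probe set with the shared-probe suffix. Map2, which stabilises dendritic microtubules, rose by 0.97 ± 0.21 (adjusted p = 0.015), and Map1a, a microtubule-binding protein of mature neurons, rose by 0.64 ± 0.11 (adjusted p = 0.0034). The Map2 call rests on 1 of 5 probe sets, since another at 0.44 did not pass and the other 3 lay below the filter. The Map1a call rests on 1 of 2 probe sets, since the other, with a mean signal of 13.3, lay below the filter. Stmn1, the stathmin of dividing cells, which sequesters tubulin dimers, fell by 0.63 ± 0.14, with 1413 ± 149 in induced and 2214 ± 421 in uninduced cells (adjusted p = 0.015). Under median centring Stmn1 and Plk1 were no longer called (adjusted p = 0.12 and 0.26), nor without the intensity trend (0.078 and 0.079), without uninduced replicate 2 (0.052 and 0.059) and with both arrays numbered 2 left out (0.12 and 0.10). The last of these also ended the Map1a call (0.056).

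Of 38 motor genes listed, 15 were tested, with 0 called higher, 1 called lower and 14 not called, at a median of 0.04. Kifc1, a minus-end directed kinesin of the mitotic spindle, read 1326.0, 1417.0, 1437.1 and 1168.7 on the induced arrays, against 2677.1, 2498.7, 2649.0 and 2713.0 on the uninduced arrays. It fell by 0.98 ± 0.09 on the log2 scale (limma adjusted p = 4.1e-05), with every induced array below every uninduced one. A second probe set of Pafah1b1, a dynein regulator, rose by 0.53 ± 0.14 (adjusted p = 0.035) while its brightest differed by -0.03; it was picked out after its value was seen.

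Tubulin folding genes had 5 of 23 tested and 0 called in either direction with limma, at a median of 0.08. The lowest p-values were those of the chaperonin subunits Cct3 (0.25 ± 0.12, adjusted p = 0.28) and Cct6a (0.32 ± 0.19, adjusted p = 0.43). The genes of tubulin modification and severing had 7 of 20 tested and 0 called, at a median of -0.11. There Agtpbp1, a carboxypeptidase that trims tubulin tails, differed by -0.22 ± 0.12 (adjusted p = 0.39) and the tubulin deacetylase Hdac6 by -0.20 ± 0.13 (adjusted p = 0.47).

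**Figure D4:**
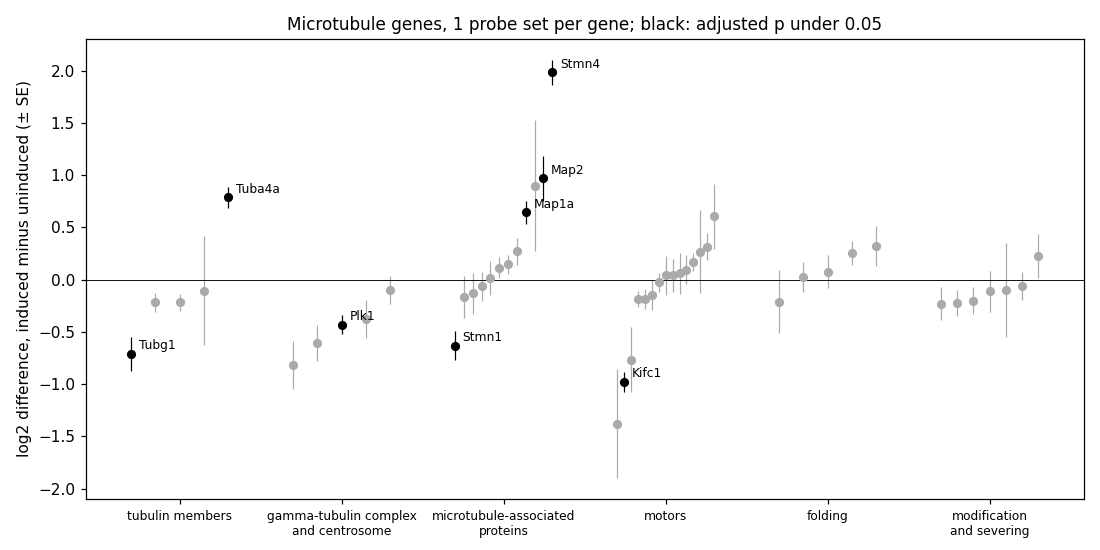
Fitted log2 difference, induced minus uninduced, with its SE (y axis) for the brightest probe set of each tested gene, in columns for the tubulins and 5 lists of microtubule genes; black points passed the limma test and are named. Stmn4 at 1.98 is the highest point, and among the tubulins Tuba4a and Tubg1 lie apart from the others.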

How the data were processed

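The deposited table held intensities, with a scaled signal for each of 8799 probe sets of an Affymetrix rat array. The authors had scaled the arrays before they deposited them, since the mean trimmed by 2% at each end was 500.8 to 500.9 on all 8 arrays; the program is not given in the sources used here. Titles set the groups. Gene symbols came from the platform's annotation, which gave a single symbol to 7018 of them, more than 1 to 308 and no symbol to 1473. The 5 tubulin gene identifiers were all found in the rat RefSeq list (GRCr8) under the same symbol.

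The 59 control probe sets and 2611 with a mean under the 30th percentile (36.0) were left out. For the remaining 6129, 7 (close to the 10th percentile of all values, 6.7) was added to the signal and log2 was taken. limma 3.58.1 (R 4.3.3) fitted a group difference per probe set with lmFit, and eBayes moderated the variances along a trend in intensity (6 residual and 5.77 prior degrees of freedom). The script was tested on simulated data. Ratios within an array were tested by exact permutation. Alternatives were other constants (1 and 50), no filter, median centring, quantile normalization, no trend, the replicate number as a block, and leaving out arrays. Replicate numbers are shared by the groups, but nothing in the sources used here says that they mark pairs. The correlations of same-numbered deviations ran from -0.144 to 0.191, which does not decide it. The main fit used no pairing.

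The tubulins and the gene lists were chosen with earlier results of these data known. Genes named from a list are its called genes (up to 6 of lowest p), or the 2 of lowest p where none was called, and for each tubulin the 2 genes nearest in profile; others are said to have been chosen after their values were seen. The number of arrays limits the precision.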

Additional observations from a re-analysis of the deposited data

Results flagged for a closer look

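Of 46 groups of 4 arrays looked at for a lone high or low value, 2 held one, where chance gives about 5%. Induced replicate 1 of Tuba4a, at 1052.8, stood apart above the other 3 induced arrays at 962.6 to 975.9. Without it the log2 difference of Tuba4a was 0.76 and was called. Uninduced replicate 4 of Agtpbp1, at 475.8, stood apart below the other uninduced arrays of that gene.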

How the results depend on the processing

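The number of probe sets called over the whole array was 433, and it was 230 with median centring, 279 without the intensity trend and 221 with both arrays numbered 2 left out. Leaving out 1 array gave 314 to 411. Median centring also moved the split, to 167 higher and 63 lower, against 251 and 182. The number of tubulin probe sets called was 2, and it was 1 with median centring and without the trend, and 1 to 3 without 1 array (1 without uninduced replicate 1 or 3, and 3 without induced replicate 4). Tuba4a was called each time, so the calls lost were those of Tubg1. With the replicate number as a block 367 probe sets and 2 tubulin probe sets were called, and this fit changed no call of a gene named from the lists. A sample correlated best with its own number in 2 of 8 cases, which leaves undecided whether the samples were paired. Of 304 refits of the 19 named probe sets, 287 kept their side of the threshold, 15 lost a call and 2 gained one; none of those called turned its sign. For the 3 within-array ratios, the test after adjustment cannot pass when a single ratio reaches the smallest p, with 4 arrays against 4 (0.029, adjusted 0.086), 3 against 3 (0.10) or 4 pairs (0.125), so that they did not pass in any alternative says nothing about stability. Without 1 array the difference ranged from 0.93 to 1.07 for Tuba4a over Tuba1b, from -0.06 to 0.09 for Tuba1b over Tubb5 and from -0.28 to 0.61 for Tubb2b over Tubb5. Low signal over background limits what can be said of Tubb2b.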
